A study of Homo sapiens with 8 samples.

Results

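Antisense transcripts are RNAs made from the strand opposite to an annotated gene, and the 1544 described here are those that the study's combined transcript assembly gave the gffcompare class code x. That code marks a transcript lying over exons of a reference gene on the other strand. The assembly holds 1548 transcripts with this code, and 1544 of them have counts, among 96614 transcripts with counts in all. They lie opposite 1128 genes in 1290 loci, and 893 of these genes have a single antisense member. None carries a reference transcript identifier of its own.

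The libraries hold polyadenylated RNA from H1, a long-established line of human embryonic stem cells, read full length on a PacBio Sequel II. There were 2 libraries of each of 4 groups. Undifferentiated cells (hPSC) were grown in mTeSR1 on Matrigel. Ectoderm cells received A83-01, PNU-74654 and Dorsomorphin in knockout serum replacement medium, which inhibit Activin/TGF-beta, WNT and BMP signalling. Endoderm cells received WNT3A and Activin A, and mesoderm cells received VEGF, BMP4 and bFGF, with Activin A on the opening day. The layers were collected after 5 days, and all cells came from this 1 line, so the groups share its genome. The labels call the libraries of a group repeats without saying whether they were separate cultures, so p-values measure the spread between these libraries, which may be technical.

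Antisense RNA is common around human genes. Some antisense RNAs start at the same promoter as the gene they oppose and are made in the other direction, some run into the end of a converging neighbour, and some cross a whole gene. Many known ones are spliced, polyadenylated noncoding RNAs that are low in abundance and differ between cell types, and a few are known to silence the gene they cross. Long reads show their exon chains directly.

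The splice sites of some spliced members are shown because their bases belong to 1 strand. The study's reads were not used for this. The bases come from GENCODE 29 transcripts on GRCh38, wherever a reference exon on the other strand covered both sides of an antisense splice site. That exon need not belong to the gene named as opposite. The bases are written 5′ to 3′ on the antisense strand. Capitals mark the 2 intron bases at the exon edge, with 15 bases on either side of the edge. Counts of these antisense transcripts are given further on, and for the one opposite TBX10, a T-box factor gene without sense counts, they were 4 and 7 (hPSC), 8 and 4 (ectoderm), 16 and 18 (endoderm) and 3 and 1 (mesoderm). By CPM (counts scaled to a library total of 1e+06) the TBX10 antisense transcript stood at 27.3 and 30.7 in endoderm, above the other 6 libraries. It does not overlap the exons of the TBX10 transcript named as opposite, so its donor was read from another reference transcript.

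IFNLR1 antisense, first acceptor, chr1:24154997-24155026, plus strand: tttacttttttgaAGttacctccacgaagc
IFNLR1 antisense, second donor, chr1:24155178-24155207, plus strand: cctggggagacacagGTgtgtgtcgtatgt
IFNLR1 antisense, second acceptor, chr1:24157240-24157269, plus strand: cctcttcctcctcAGggctgctttcccagc
TLR5 antisense, acceptor, chr1:223110509-223110538, plus strand: tttttctttctttAGtatctgttgagagag
FEZF1-AS1 antisense, donor, chr7:122307271-122307300, minus strand: gctgggaagtggcagGTaggaaaaggaatc
FEZF1-AS1 antisense, acceptor, chr7:122307137-122307166, minus strand: cctttgtctgagcAGgggaaaggaggagac
TBX10 antisense, donor, chr11:67628048-67628077, plus strand: ggccaggcggggctgGTaggtaccaggtgc

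Of 34 different donor sites that could be read in this way, 28 (82.4%) were GT and 5 were GC, and 47 of 50 acceptor sites (94.0%) were AG. Among all base pairs on the antisense strand of the 54 reference transcripts used, 5.46% were GT and 7.45% were AG. Both sites could be read for 23 introns, of which 16 were GT-AG and 4 were GC-AG. Spliced aligners such as minimap2, which the submitters' processing notes name, can use these signals to place introns and their strand, so the shares are a description and no independent check of strand. The 1212 members with 1 exon have no splice site to read. A repeat stands out among the GC sites: the 2-exon antisense transcript opposite DIP2C-AS1 is assembled with an intron at chr10:666600-666629 whose flanks hold nearly the same letters.

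DIP2C-AS1 antisense, donor, chr10:666615-666644, minus strand: gccacgggcagacagGCcacgggcagacag
DIP2C-AS1 antisense, acceptor, chr10:666585-666614, minus strand: gccacgggcagacAGgccacgggccgacct

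Transcript ends were read in the same way, but from reference exons on either strand. AATAAA and ATTAAA are the usual signals for adding a poly(A) tail, and at least 1 of them stood in the last 50 bases of 16 of 57 readable antisense ends (28.1%). They stood in 51.9% of the own last 50 bases of the 135 reference transcripts used, and in 3.91% of all 50-base windows antisense to those transcripts. Runs of A were more frequent than the signals. Of the 57 ends, 30 (52.6%) had at least 12 A among their last 20 bases, against 1.47% of 20-base antisense windows, and 4 ends had both features. An end that falls in a stretch of A in the genome can also arise when the oligo-dT primer pairs inside an RNA, and whether that happened here was not tested. The lines below show 2 ends with a signal, in capitals, and 2 ends in a run of A without one, among them an antisense transcript opposite SOX11, a transcription factor of neural cells.

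TRIM45 antisense, last 30 bases, chr1:117144553-117144582, plus strand: gaAATAAAcccgcatttgtttgtttaaaaa
ENSG00000260988 antisense, last 30 bases, chr15:78143012-78143041, minus strand: aggttacttgtcAATAAAaattgtgttcct
SOX11 antisense, last 30 bases, chr2:5694670-5694699, minus strand: caaaaaaaaaaaaaaaaaaaaaaaaaaaaa
INSYN2A antisense, last 30 bases, chr10:127136464-127136493, plus strand: aaatttaagttgtacaaaaaaaaaaaaaaa

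Starts were compared with the promoters of RefSeq (GRCh38.p14), taken as 250 bases before to 50 after each gene's start. Of the 1544 antisense transcripts, 54 started inside the window of an opposite-strand gene, and for 35 of them it was the gene named as opposite. The 47 promoters concerned had a median of 32.0 CG pairs, against 14.0 over all 35116 windows. RCE1, which encodes a protease that trims prenylated proteins, had 3 such transcripts. They started 72 to 75 bases before the RCE1 start and ran the other way. The 250 bases before the RCE1 start are shown because these divergent starts lie in them, and they hold 29 CG pairs, in capitals.

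RCE1 promoter, chr11:66843191-66843440, plus strand: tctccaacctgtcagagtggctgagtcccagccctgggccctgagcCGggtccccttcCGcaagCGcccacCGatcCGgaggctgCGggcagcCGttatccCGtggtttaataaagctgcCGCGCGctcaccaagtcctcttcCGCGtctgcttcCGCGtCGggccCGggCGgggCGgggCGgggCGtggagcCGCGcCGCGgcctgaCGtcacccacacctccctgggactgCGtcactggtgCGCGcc

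The antisense transcript of RCE1 with the most counts had 1 exon of 5921 nt and 30 counts over the 8 libraries. It had counts of 3 and 3 (hPSC), 3 and 7 (ectoderm), 3 and 4 (endoderm) and 2 and 5 (mesoderm). RCE1 itself had counts of 40 and 14 (hPSC), 43 and 28 (ectoderm), 24 and 22 (endoderm) and 25 and 38 (mesoderm). The antisense counts of the 4 groups overlapped, and they were too low to be tested.

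The class code was checked against GENCODE 29. For 1059 members the named opposite transcript is present there in the same version, and 759 of these overlap an exon of it, by a median of 369 nt. The other 300 (28.3%) do not, and 234 of those lie inside the span of the opposite gene. Only that named transcript was compared, so overlap with other transcripts on the other strand was not measured. The transcripts are therefore called class x antisense transcripts here, since exon overlap could not be shown for all. Among the 1414 members whose opposite gene is in GENCODE 29, the opposite gene was protein coding for 527, itself an antisense RNA gene for 322, a lincRNA for 186 and a processed pseudogene for 177.

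Most members were long and unspliced. Of the 1544, 1212 had 1 exon, with a median length of 5736 nt and up to 41075 nt, and 332 had 2 or more exons, with a median of 3911 nt. On their own strand, 880 of the 1-exon members (72.6%) lay wholly inside an intron of another GENCODE 29 gene, against 61 of the spliced members (18.4%). No same-strand gene was found for 326 of the 1-exon members and for 219 of the spliced ones (66.0%). Only 7 members shared an exon with a same-strand gene. Among members whose opposite gene is in GENCODE 29, the spliced ones most often lay over its 3′ end (100, or 32.2%), and the 1-exon ones most often inside it (433, or 39.3%).

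**Figure D1:**
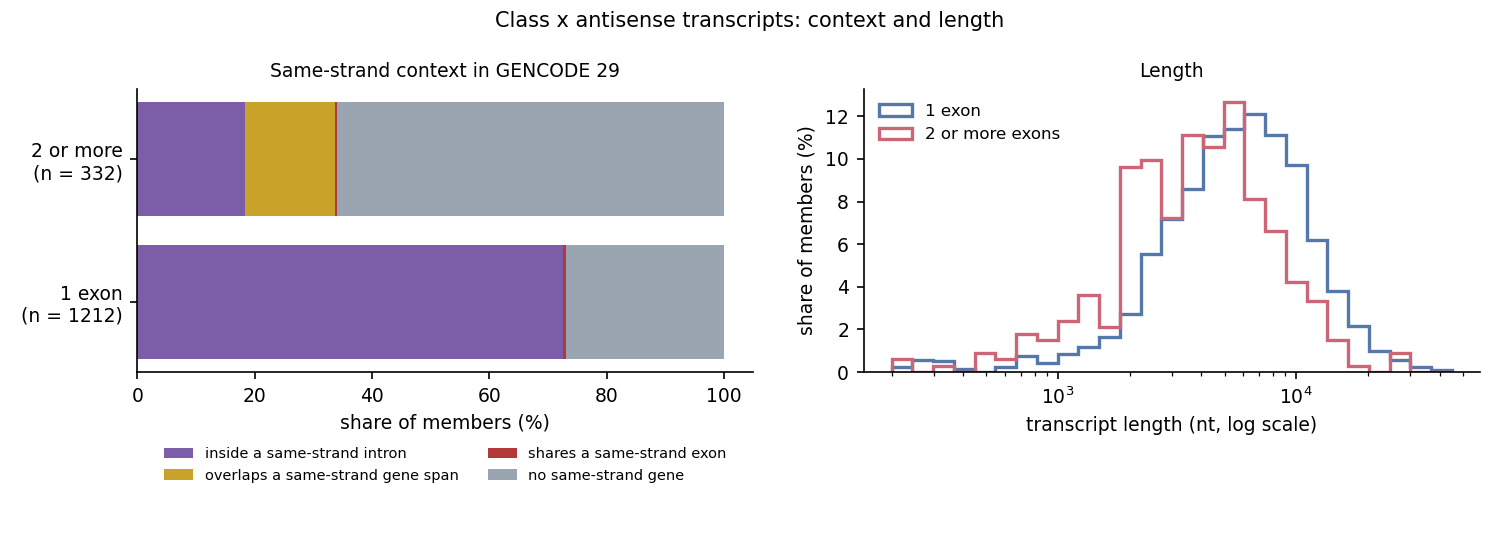
Same-strand context (left, share of members in %) and transcript length (right, nt, log axis, share of members in %) of the 1212 antisense members with 1 exon and the 332 with 2 or more. Most 1-exon members lie inside an intron of a gene on their own strand (72.6%), most spliced members have no gene there (66.0%), and the 1-exon members are longer.

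Transcripts inside reference introns (class code i) were set beside them, since most 1-exon members lie in such introns on their own strand. There were 8117 of them, 92.3% with 1 exon and with a median length of 5576 nt, and 78.5% of the antisense members had 1 exon, with a median of 5284 nt. The antisense members held 17.0% and 16.0% (hPSC), 16.9% and 16.7% (ectoderm), 21.2% and 21.4% (endoderm) and 16.4% and 16.4% (mesoderm) of the counts of both classes together. Both endoderm libraries were above the other 6, and the groups did not differ past 0.05 (exact permutation test of F, p = 0.105). Among transcripts of 2 or more exons this share was lowest in hPSC at 25.1% ± 1.22 (SD, n = 2) and highest in endoderm at 42.8% ± 0.970, with ectoderm at 34.7% ± 1.09 and mesoderm at 34.6% ± 2.06 (exact permutation test, p = 0.0286). With all exon numbers, endoderm stayed highest when any 1 library was left out, with ranges between group means of 4.78 to 5.35 percentage points. The reads counted here also built the transcript models. The assembly of a single group holds 93.8% of the antisense members and 93.3% of the class i transcripts. This comparison was added once the data had been seen. Its p-values are therefore no independent support for a difference between groups.

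The libraries held 503840 to 1180888 counts, with both ectoderm libraries the deepest at 967206 and 1180888. A count of 0 allows up to 3 counts, which is 2.54 to 5.95 CPM. These floors, and the intervals given further on, cover counting error only. The labels were checked against marker genes. In CPM, POU5F1 stood at 716 and 626 (hPSC), SIX3 at 113 and 91.0 (ectoderm), CER1 at 1663 and 2015 (endoderm) and HAND1 at 495 and 544 (mesoderm), each above every library of the other groups. Other markers did not separate the groups in this way. NANOG stood at 152 and 230 CPM in hPSC and at 157 and 111 in endoderm, and LIN28A at 811 and 612 in hPSC and 879 and 1280 in ectoderm. OTX2, on the ectoderm list, was highest in endoderm at 412 and 406 CPM. SOX2 stood at 137 and 8.90 CPM in the 2 hPSC libraries, and at 152 and 133 in ectoderm. In mesoderm the defining markers MIXL1 and TBXT were at 0 to 1.88 CPM, while GABRP, a gene of amnion, stood at 4272 and 4674. The part of amnion-like cells in the mesoderm values was not tested.

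The antisense transcripts, as assembled, took a larger share of the counts in ectoderm and mesoderm than in hPSC and endoderm. They held 0.562% and 0.621% of the counts of the ectoderm libraries, 0.405% and 0.451% of mesoderm, 0.339% and 0.301% of hPSC, and 0.285% and 0.289% of endoderm. The 4 groups did not overlap, and hPSC and endoderm lay closest together. The groups differed beyond the spread between repeats (exact permutation test of F, two-sided, over all partitions of the 8 libraries into pairs, p = 0.00952, the smallest this design allows). However, 1448 of the 1544 members are held by a single group assembly, and 863 models come from that of ectoderm. The reads counted here thus also built the models. The p-values on their shares and numbers, here and below, are therefore no independent support for a difference between groups. In bulk RNA, fewer cells with a transcript and less of it per cell cannot be told apart.

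The 1-exon members carried nearly all of the difference. Their share ran from 0.190% ± 0.00408 (SD, n = 2) in endoderm over 0.239% ± 0.0293 (hPSC) and 0.355% ± 0.0291 (mesoderm) to 0.491% ± 0.0397 in ectoderm. The spliced members took 0.101% ± 0.00214 in ectoderm, 0.0971% ± 0.00128 in endoderm, 0.0808% ± 0.00294 in hPSC and 0.0734% ± 0.00314 in mesoderm. Both orders differed beyond the repeats (exact permutation test, p = 0.00952 for each), but mesoderm is second for 1-exon members and last for spliced ones. Members inside a same-strand intron went from 0.136% ± 0.00750 in endoderm to 0.401% ± 0.0329 in ectoderm. Members with no same-strand gene held 0.176% ± 0.00834 in ectoderm, 0.133% ± 0.00348 in endoderm, 0.132% ± 0.00815 in hPSC and 0.116% ± 0.00117 in mesoderm, which is the lowest here (exact permutation test, p = 0.0286). The share of class i transcripts moved the same way, from 1.06% ± 0.000407 of counts in endoderm over 1.62% ± 0.0481 (hPSC) and 2.18% ± 0.161 (mesoderm) to 2.94% ± 0.237 in ectoderm. The part of such intronic RNA in the difference was not tested.

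**Figure D2:**
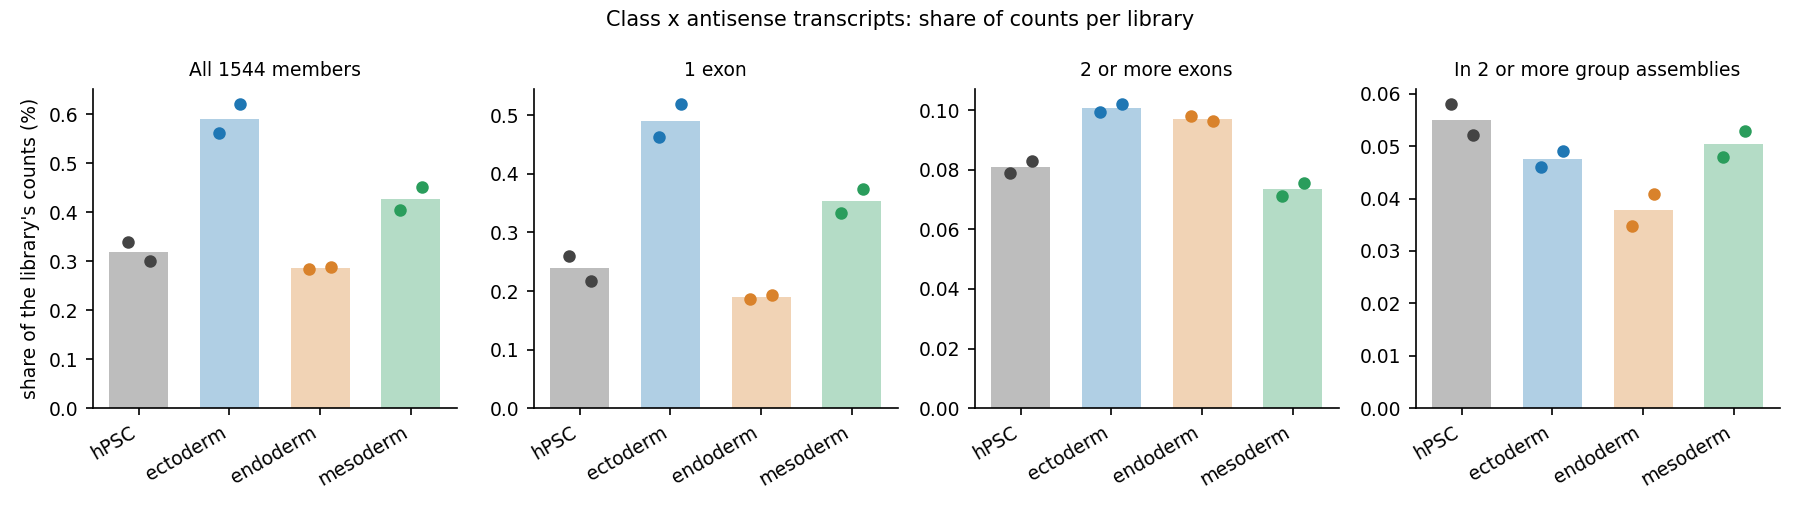
Share of each library's counts (%) held by class x antisense transcripts, for all members, for members with 1 exon, for members with 2 or more, and for members that at least 2 group assemblies hold. Points are the 2 libraries of a group and bars their mean. The ectoderm libraries are highest in the first 3 panels, and the hPSC mean in the fourth, where the libraries of hPSC and mesoderm overlap.

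The order differed with the group assembly that a transcript model came from. The ectoderm assembly, from the deepest libraries, holds 906 class x transcripts, or 1.62% of its transcripts, against 227 (0.680%) in the hPSC assembly, 228 (0.730%) in endoderm and 313 (0.842%) in mesoderm. Of the 1544 members, 863 have a model taken from the ectoderm assembly, 286 from mesoderm, 199 from hPSC and 196 from endoderm, and 1448 are held by a single group assembly. Members taken from a group's own assembly were highest in that group in every case. Members from the hPSC assembly held 0.109% ± 0.000210 of counts in hPSC and 0.0308% ± 0.00169 to 0.0369% ± 5.22e-05 in the layers. Members from the endoderm assembly held 0.119% ± 0.00588 in endoderm and 0.0272% ± 0.000538 to 0.0321% ± 0.00379 elsewhere. Members from the mesoderm assembly held 0.156% ± 0.0151 in mesoderm, 0.0824% ± 0.00481 in ectoderm, 0.0412% ± 0.00714 in hPSC and 0.0340% ± 0.00794 in endoderm.

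Among members that at least 2 group assemblies hold, the order changed. These took 0.0550% ± 0.00412 (SD, n = 2) of counts in hPSC, 0.0504% ± 0.00338 in mesoderm, 0.0476% ± 0.00215 in ectoderm and 0.0378% ± 0.00444 in endoderm (exact permutation test, p = 0.0476). Ectoderm was thus highest over the whole class as assembled, but not over the members that more than 1 assembly holds.

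**Figure D3:**
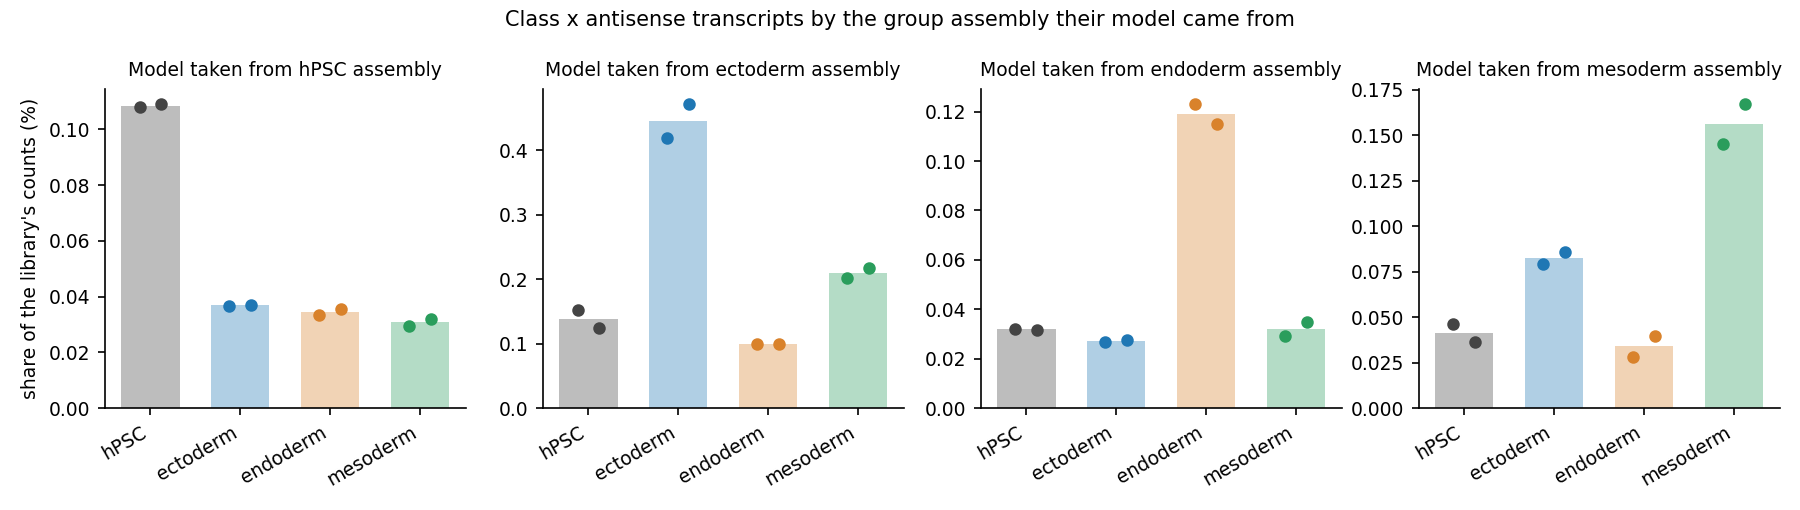
Share of each library's counts (%) held by class x antisense transcripts, split by the group assembly that their model was taken from. Points are the 2 libraries of a group and bars their mean, and in each panel the group whose own assembly gave the models is highest.

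More members were also detected in ectoderm at equal depth. Thinned to 503840 counts per library, 1017 and 1038 members were expected with a count in the ectoderm libraries, against 850 and 875 (mesoderm), 756 and 686 (hPSC) and 625 and 650 (endoderm) (exact permutation test, p = 0.00952). For spliced members the expected numbers were 174 and 173 (ectoderm), 154 and 139 (hPSC), 154 and 143 (endoderm) and 133 and 133 (mesoderm) (exact permutation test, p = 0.0381). Thinning does not change the models, which were assembled from every read. Of all members, 120 had counts in all 8 libraries. Another 121 had counts in ectoderm alone, 43 in endoderm alone, 21 in hPSC alone and 17 in mesoderm alone.

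Against the genes they oppose, the antisense transcripts were a minority of counts. Sense counts are those of transcripts that share exons or introns with the opposite gene on its own strand. Over all 1128 opposite genes, the antisense share of antisense plus sense counts ran from 7.59% ± 0.103 (SD, n = 2) in endoderm over 11.9% ± 2.08 (hPSC) and 14.6% ± 1.04 (mesoderm) to 22.3% ± 2.08 in ectoderm (exact permutation test, p = 0.00952). For genes opposed by spliced members the order was another one, with 19.4% ± 0.185 in endoderm, 17.4% ± 0.899 in ectoderm, 15.6% ± 0.770 in hPSC and 7.07% ± 0.0787 in mesoderm (exact permutation test, p = 0.00952). The median over the 43 genes with at least 20 counts in every library ranged from 0.959% to 1.37% and did not differ past 0.05 (exact permutation test, p = 0.857).

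Most opposite genes had no sense counts. Of the 1128, 759 (67.3%) had no sense count in any library, and 842 (74.6%) had more antisense than sense counts. Sense counts were absent for 155 of 158 processed pseudogenes, 209 of 235 antisense RNA genes, 103 of 126 lincRNA genes and 88 of 370 protein-coding genes. Only 24 opposite genes had at least 1000 sense counts. One of them was H3-3B, which encodes histone H3.3: its sense counts ran from 461 to 2419 per library, and its 2-exon antisense transcript had 4 to 15, with no difference past the threshold in any layer.

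Lists of lineage genes were compared with the opposite genes. Over all 19951 protein-coding genes of GENCODE 29, 370 (1.85%) were opposite to a class x transcript, so lists of this size hold few by count alone. Of 17 pluripotency genes, 17 endoderm genes, 35 mesoderm genes and 18 imprinted genes on the lists used, 0 were the opposite gene of a class x transcript. Of 33 ectoderm genes, only ZIC4 was, a zinc finger factor of the developing brain that lies head to head with ZIC1. Its 2 antisense transcripts had counts of 3 and 9 (ectoderm) and none elsewhere, and ZIC4 itself had counts of 1 and 2 there and none elsewhere. Both lie in an intron of ZIC1 on its strand, and they were too low to be tested. Among ribosomal protein, mitochondrial and abundant housekeeping genes, 11 were opposed, all of them ribosomal protein pseudogenes. The member opposite RPL32P22 had the most counts, with 4 and 0 (hPSC), 24 and 26 (ectoderm), 3 and 1 (endoderm) and 7 and 4 (mesoderm), while RPL32P22 had none. It rose in ectoderm by 2.38 ± 0.73 (SE) on the log2 scale (adjusted p = 0.0139, 0.130 by DESeq2). The other 6 with at least 20 counts (RPL7AP43, RPL35AP32, RPS3AP28, RPL12P29, RPL12P44 and RPL17P17) each had their highest mean CPM in ectoderm or mesoderm, in counts from 0 to 16, with 0 sense counts.

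Few antisense transcripts were abundant enough for a test. Their counts summed over the 8 libraries had a median of 11 and a maximum of 160, and 44 of the 1544 passed the filter on low counts. Fold changes against hPSC are log2 values from edgeR's quasi-likelihood fit over 12440 transcripts, called at an adjusted p under 0.05. The 3 comparisons share the hPSC libraries. In ectoderm 22 of the 44 rose and 7 fell, with 45.9% of all tested transcripts called and a median log2 fold change of 1.47 for the members and 0.01 for all. In endoderm 7 rose and 5 fell, with 26.7% called and medians of -0.18 and -0.17. In mesoderm 4 rose and 6 fell, with 32.8% called and medians of -0.02 and 0.04. A member that passes the filter only through the group in which it is high had to differ, so these counts describe the 44 and not the class. Of the 44, 27 reached the cutoff of the filter (17.4 CPM) in libraries of 1 group only, among them those opposite TLR5, ENSG00000286279, LINC02523, FEZF1-AS1, ENSG00000229618, ENSG00000286072, ENSG00000249278, ENSG00000255580, GPR18, RPL32P22, DET1 and ENSG00000275661. The p-values of these members are given with their values and are no independent support for the difference. With DESeq2 the numbers up and down were 7 and 5 (ectoderm), 6 and 4 (endoderm) and 1 and 6 (mesoderm).

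Several members were highest in the undifferentiated cells. The transcript opposite TLR5, the receptor for bacterial flagellin, has 3 exons at chr1:223024123-223115224 on the plus strand, and it overlaps the exons of TLR5 by 2512 nt. Its counts were 26 and 45 (hPSC), 0 and 0 (ectoderm), 3 and 4 (endoderm) and 0 and 0 (mesoderm). Both hPSC libraries were above all others. It was at least 21.0-fold lower in ectoderm (adjusted p = 9.33e-06) and at least 10.9-fold lower in mesoderm (adjusted p = 5.62e-05), against a floor of 3 counts in the shallower library of the group at 0. In endoderm it fell by 3.16 ± 0.59 (SE) on the log2 scale (adjusted p = 0.00136). Another 3-exon transcript opposite TLR5 (5525 nt) went the other way, with counts of 0 and 0 (hPSC) and 6 and 2 (endoderm). Summed over all 6 antisense transcripts of TLR5, the fall in endoderm was 1.21 ± 0.43 (SE, adjusted p = 0.0496, 0.263 by DESeq2). The acceptor of the transcript described first is among the splice sites printed above.

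IFNLR1 encodes the receptor subunit for interferon lambda. Its antisense transcript with the most counts (160) has 3 exons at chr1:24151487-24162959 on the plus strand, covers the 3′ end of IFNLR1 and overlaps 1252 nt of its exons. It had counts of 28 and 41 (hPSC), 22 and 39 (ectoderm), 10 and 9 (endoderm) and 6 and 5 (mesoderm), or 53.9 and 72.9 CPM in hPSC and 18.6 and 40.3 in ectoderm. By CPM both hPSC libraries were above the other 6. It fell in all 3 layers, with a log2 fold change of -2.67 ± 0.53 (SE) in mesoderm (adjusted p = 0.00116), -1.70 ± 0.48 in endoderm (adjusted p = 0.0165) and -1.36 ± 0.42 in ectoderm (adjusted p = 0.0140). The call in mesoderm also passed with DESeq2 (adjusted p = 0.00871), and those in ectoderm and endoderm did not (adjusted p = 0.167 and 0.114). The ectoderm call was lost without the second hPSC library (adjusted p = 0.0536) or the first ectoderm library (0.287), and the endoderm call without either endoderm library (0.0853 and 0.103). IFNLR1 itself had 5 to 10 counts in every library, and no layer passed the test for it.

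On chromosome 12, a 9352-nt unspliced transcript opposite ENSG00000286279 (chr12:59319258-59328609, minus strand) faced a gene without any sense count. Counts for the antisense transcript were 70 and 64 (hPSC, 135 and 114 CPM), 1 and 0 (ectoderm), 3 and 1 (endoderm) and 0 and 0 (mesoderm), so both hPSC libraries stood far above the others. The pooled CPM was 266-fold lower in ectoderm (95% exact interval 47.0 to 10591, adjusted p of the fit 8.34e-07) and at least 20.9-fold lower in mesoderm (adjusted p = 3.19e-06). In endoderm it fell by 4.85 ± 0.56 (SE) on the log2 scale (adjusted p = 2.60e-05). A second, 2-exon transcript over the same span had counts of 11 and 22 (hPSC) and 1 and 0 (ectoderm), and none in endoderm or mesoderm. These 2 share sequence and are not independent of each other.

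LINC02523 is a noncoding gene with no sense count in any library. An unspliced transcript on its other strand (chr6:125701884-125707418, minus strand, 5535 nt) had counts of 48 and 50 (hPSC), 1 and 3 (ectoderm), 5 and 0 (endoderm) and 0 and 0 (mesoderm). It lies inside the LINC02523 span without touching the exons of the named transcript, and inside an intron of AL365259.1 on its own strand. It fell by 5.68 ± 0.65 (SE) on the log2 scale in ectoderm (adjusted p = 1.74e-05) and in endoderm it fell by 4.09 ± 0.66 (adjusted p = 0.000409), and it was at least 15.2-fold lower in mesoderm (adjusted p = 3.87e-05).

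**Figure D4:**
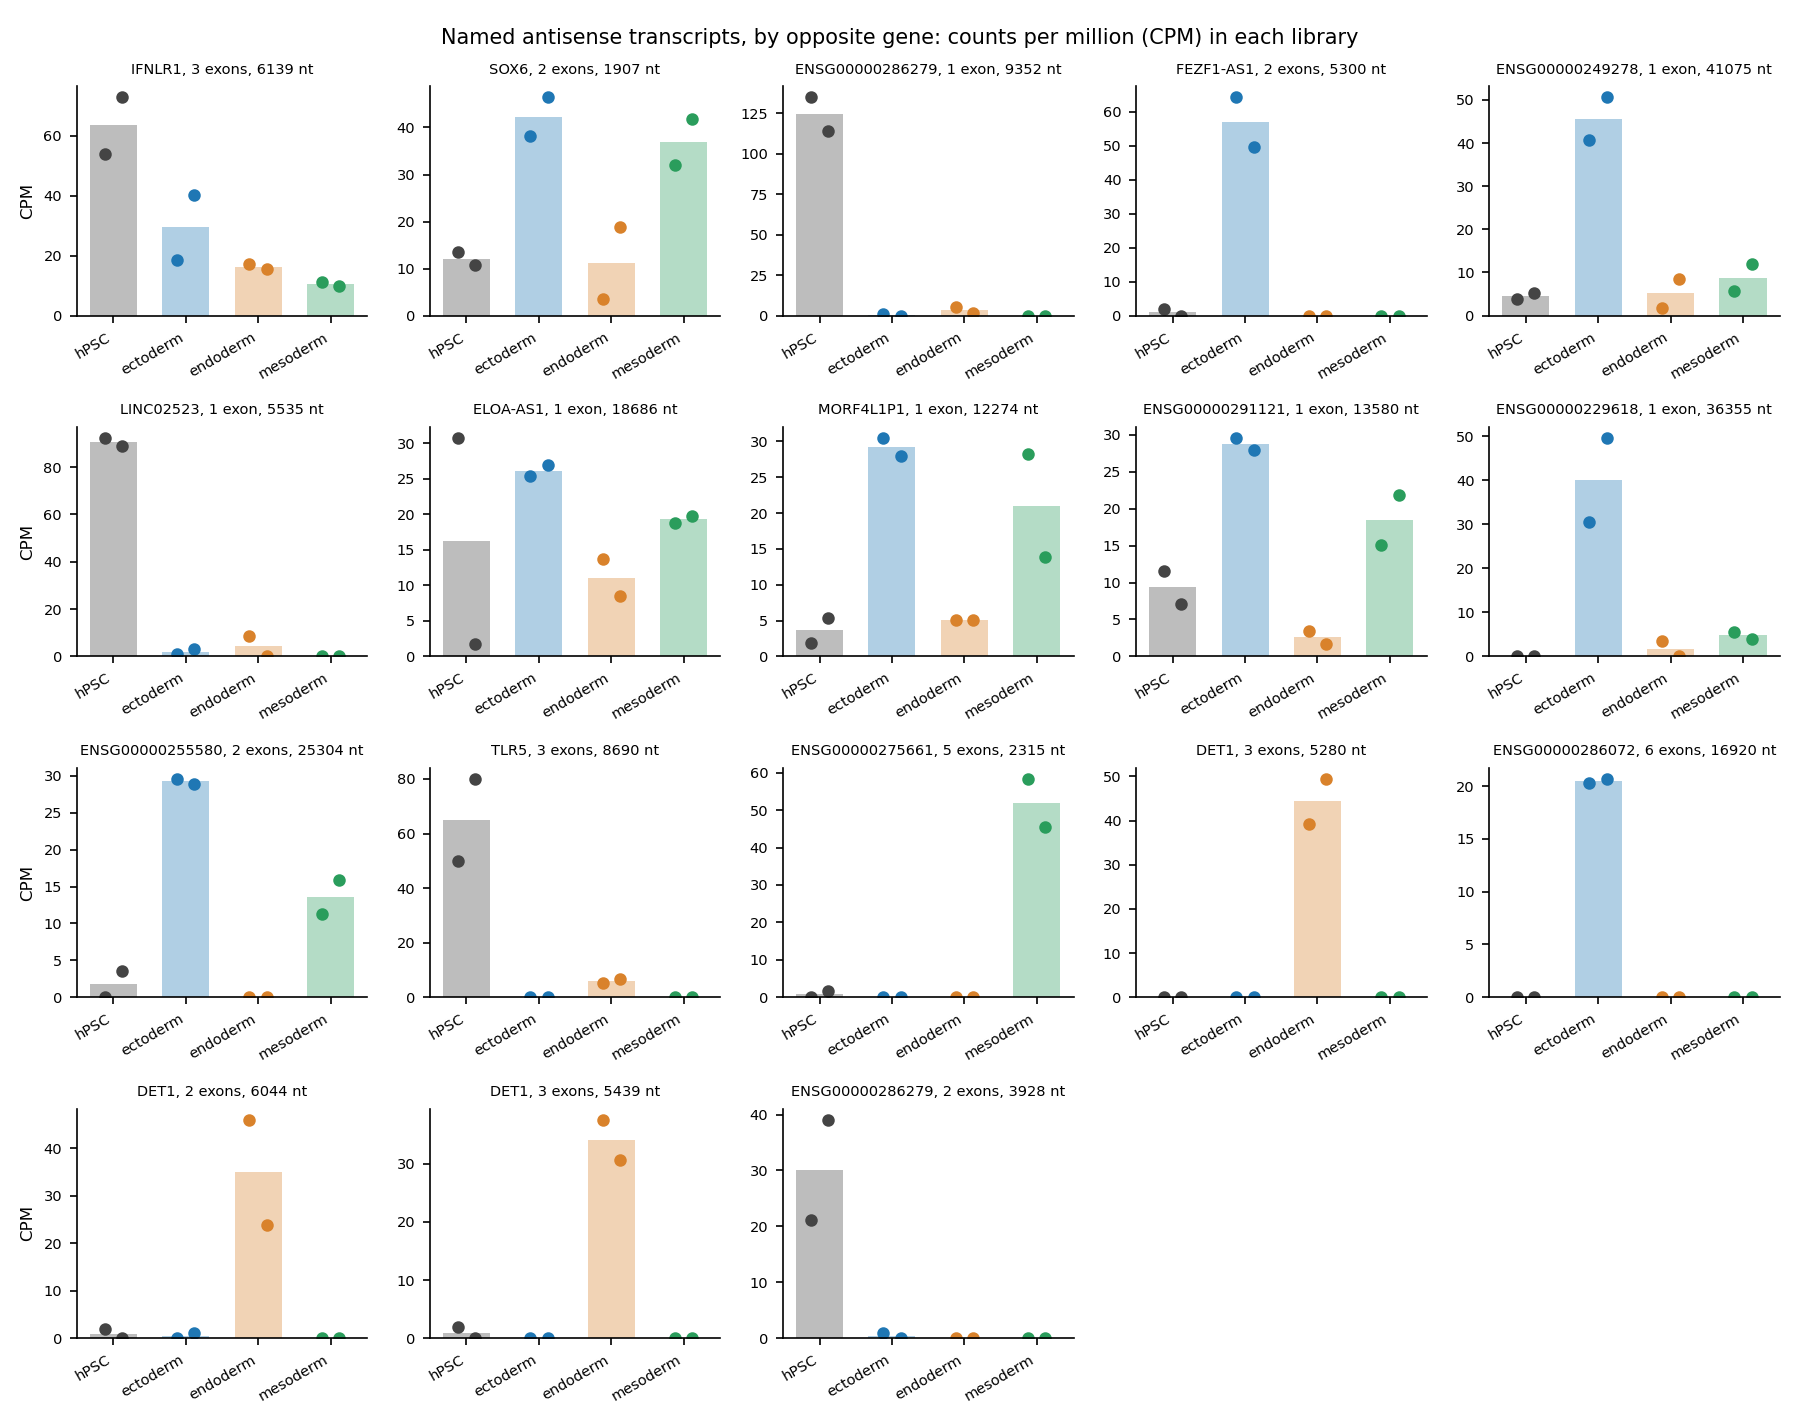
Scaled counts (CPM) in each library for 18 antisense transcripts, named by the opposite gene, with exon number and length. Points are the 2 libraries of a group, bars their mean, and each panel has its own axis. The hPSC libraries are highest opposite TLR5, ENSG00000286279 and LINC02523, ectoderm opposite FEZF1-AS1, ENSG00000229618 and ENSG00000286072, endoderm opposite DET1, and mesoderm opposite ENSG00000275661.

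Other members were highest in ectoderm. FEZF1-AS1 is a noncoding gene beside FEZF1, a zinc finger factor of the forebrain, and the class x transcript opposite FEZF1-AS1 thus runs on the strand of FEZF1. It has 2 exons at chr7:122304751-122310184 and lies in an intron of FEZF1 in GENCODE 29. It had counts of 1 and 0 (hPSC) and 76 and 48 (ectoderm), and none in the endoderm and mesoderm libraries. The pooled CPM was 62.4-fold higher in ectoderm (95% exact interval 11.0 to 2485, adjusted p of the fit 0.000148). FEZF1 itself had counts of 4 and 0 (hPSC) and 890 and 680 (ectoderm), and it rose by 7.14 ± 0.56 (SE) on the log2 scale (adjusted p = 5.20e-07).

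Opposite ENSG00000229618, a lincRNA gene without sense counts, a 36355-nt unspliced transcript on chromosome 7 had counts of 0 and 0 (hPSC), 36 and 48 (ectoderm), 2 and 0 (endoderm) and 3 and 2 (mesoderm). It was at least 6.93-fold higher in ectoderm than in hPSC (adjusted p = 0.000242). Opposite ENSG00000286072 on chromosome X, a transcript of 6 exons and 16920 nt had counts of 24 and 20 (ectoderm) and none in the rest, which is at least 3.55-fold above hPSC. Of members with at least 10 counts, 15 had all of them in ectoderm, the deepest group, 3 in endoderm, 1 in hPSC and 0 in mesoderm.

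A pair of long unspliced members lay opposite pseudogenes that had no counts. The 41075-nt transcript opposite the pseudogene ENSG00000249278 lies in an intron of SHROOM3, an actin-binding protein of neural tube closure. Its counts were 2 and 3 (hPSC), 48 and 49 (ectoderm), 1 and 5 (endoderm) and 3 and 6 (mesoderm), and it rose in ectoderm by 3.02 ± 0.62 (SE, adjusted p = 0.00121). SHROOM3 rose there by 1.56 ± 0.36 (adjusted p = 0.00264). The 12274-nt transcript opposite the pseudogene MORF4L1P1 lies in an intron of RAB3GAP2, a regulator of Rab proteins. It had counts of 1 and 3 (hPSC), 36 and 27 (ectoderm), 3 and 3 (endoderm) and 15 and 7 (mesoderm). It rose in ectoderm by 2.69 ± 0.65 (adjusted p = 0.00338), with RAB3GAP2 up by 1.27 ± 0.33 (adjusted p = 0.00518). In mesoderm it rose by 2.36 ± 0.72 (adjusted p = 0.0197), with RAB3GAP2 at -0.13 ± 0.38. That mesoderm call was lost with DESeq2 (adjusted p = 0.125), without the first hPSC library (0.0840) and without the first mesoderm library (0.171).

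SOX6 encodes a transcription factor and had no sense count in any library. Its 2-exon antisense transcript (chr11:16738842-16744067, plus strand) covers the 5′ end of SOX6 and lies in an intron of C11orf58. Counts of the antisense transcript were 7 and 6 (hPSC), 45 and 45 (ectoderm), 2 and 11 (endoderm) and 17 and 21 (mesoderm). It rose in ectoderm by 1.57 ± 0.54 (SE) on the log2 scale (adjusted p = 0.0253), and this call was lost with DESeq2 (adjusted p = 0.119) and without the second ectoderm library (0.0914). In mesoderm the value was 1.50 ± 0.57 (adjusted p = 0.0550). The transcript opposite ENSG00000291121 had counts of 6 and 4 (hPSC) and 35 and 27 (ectoderm), with a log2 fold change of 1.39 ± 0.50 (adjusted p = 0.0330). That call was lost with DESeq2 (0.238), without the second hPSC library (0.119) and without either ectoderm library (0.102 and 0.0815). The 18686-nt transcript opposite ELOA-AS1 had 16 and 1 counts in the hPSC libraries. These are 30.8 and 1.78 CPM, which span the CPM values of the other groups, and no layer passed the test.

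Antisense members inside introns were compared with their host genes. Of the 44 tested members, 23 lay inside an intron of a same-strand gene, and 18 of these host genes were tested. In ectoderm 16 of those 18 members were called. The host was called in the same direction for 9, in the opposite direction for 1 and not called for 6. Those 9 hosts were called higher, as were 23.9% of all genes and sums, with 24.8% called lower and 48.7% called in all. Except in RAB3GAP2 and RGL1, the members inside these 9 passed the filter only through ectoderm and had to differ. Their rise is no independent support for a link to the host. The 9 hosts are FEZF1, SHROOM3, RAB3GAP2, CADM1, HMGA2, ANK2, RGL1, AC131392.1 and AC104041.1. CADM1, a cell adhesion protein, is one such host: it had counts of 11 and 18 (hPSC) and 764 and 610 (ectoderm), and rose by 4.13 ± 0.39 (SE) on the log2 scale (adjusted p = 1.98e-06). The 2-exon transcript inside it, opposite ENSG00000255580, had counts of 0 and 2 (hPSC), 35 and 28 (ectoderm), 0 and 0 (endoderm) and 6 and 8 (mesoderm). The pooled CPM was 15.9-fold higher in ectoderm (95% exact interval 4.21 to 134, adjusted p of the fit 0.00154) and 7.31-fold higher in mesoderm (1.68 to 66.3, adjusted p of the fit 0.0392), where CADM1 rose by 2.66 ± 0.39. The mesoderm call of this transcript was lost with DESeq2 (adjusted p = 0.186) and without the first hPSC library (0.186) or any 1 of the ectoderm or mesoderm libraries (0.0693 to 0.171).

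The exception was the member opposite GPR18, an unspliced transcript in an intron of UBAC2. It had counts of 0 and 4 (hPSC) and 22 and 25 (ectoderm) and rose by 2.29 ± 0.72 (SE) on the log2 scale (adjusted p = 0.0171, 0.165 by DESeq2). UBAC2 had counts of 60 and 113 (hPSC) and 123 and 97 (ectoderm) and fell by 1.10 ± 0.35 (adjusted p = 0.0158). In UBE2D3, which encodes a ubiquitin-conjugating enzyme, the member opposite ENSG00000286242 rose by 2.45 ± 0.70 (adjusted p = 0.00953, 0.0998 by DESeq2), while the host changed by -0.50 ± 0.28 and did not pass the test (adjusted p = 0.157). Both genes were named after their values were seen, as the single opposite pair and as the host with the most counts.

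Endoderm had its own set of spliced members opposite DET1, a component of a ubiquitin ligase. The 4 transcripts share their outer ends at chr15:88538413-88549063 on the plus strand, differ in their exons (2 or 3 exons, 5031 to 6044 nt), and overlap the exon at the 5′ end of DET1 by 136 nt. The most abundant one had counts of 2 and 2 (hPSC), 1 and 0 (ectoderm), 42 and 43 (endoderm) and 0 and 0 (mesoderm), and it rose by 4.51 ± 0.58 (SE) on the log2 scale (adjusted p = 5.64e-05). A 3-exon form of 5280 nt had counts of 23 and 29 (endoderm) and none outside endoderm, at least 7.68-fold above hPSC (adjusted p = 0.000125). The 6044-nt form had counts of 1 and 0 (hPSC) and 27 and 14 (endoderm), a pooled CPM 37.8-fold higher (95% exact interval 6.42 to 1530). The 5439-nt form had counts of 1 and 0 (hPSC) and 22 and 18 (endoderm), 36.9-fold higher (95% exact interval 6.26 to 1494). All 4 share sequence, so they count as 1 locus.

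In mesoderm the highest fold belonged to a 5-exon transcript opposite ENSG00000275661, a small RNA gene on the sequence KI270721.1 (50358 to 53024, minus strand). Its counts were 31 and 23 (mesoderm) and 0 and 1 (hPSC), with none in ectoderm and endoderm. The pooled CPM was 56.4-fold higher than in hPSC (95% exact interval 9.71 to 2269, adjusted p of the fit 0.000152).

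Some members lie among near-identical copies and their counts are uncertain. The tested members opposite ENSG00000281181 and ENSG00000280800 lie on the short arm of chromosome 21 among repeated copies. How reads shared by copies were counted is not given in the sources used here. These 2 transcripts had 2 to 13 and 2 to 17 counts per library. Summed over its 2 members, the antisense counts opposite ENSG00000280800 ran from 3 to 31 per library. Opposite ENSG00000280614, also on chromosome 21, 3 members summed to 140 counts. The largest set opposite 1 gene, 23 members opposite ENSG00000283674 on chromosome 8, summed to 32 and 31 (hPSC), 44 and 35 (ectoderm), 90 and 71 (endoderm) and 46 and 47 counts (mesoderm). That sum and the sense counts of the gene (44 and 51, 42 and 34, 108 and 111, 20 and 31) were both up in endoderm, by 1.57 ± 0.30 (SE) and 1.42 on the log2 scale (adjusted p = 0.00149 and 0.00389). In ectoderm their log2 fold changes were -1.09 ± 0.32 and -1.74 (adjusted p = 0.0107 and 0.000743), and that of the sum did not pass with DESeq2 (adjusted p = 0.0562). In mesoderm the sum was at 0.39 ± 0.31 (adjusted p = 0.356), and the gene fell by 1.07 (adjusted p = 0.0263, 0.0787 by DESeq2).

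Antisense transcripts were then summed per opposite gene and tested beside the genes themselves. Of the 1128 sums, 74 were tested in a fit over 10861 features. In ectoderm 37 of the 74 rose and 12 fell, with 48.7% of all features called, in endoderm 10 rose and 6 fell (27.1% called), and in mesoderm 12 rose and 9 fell (35.1% called). With DESeq2 the numbers up and down were 12 and 6, 8 and 3, and 6 and 7 in the same order. The filter had the same cutoff of 17.4 CPM. A sum that passes it only through the group in which it is high had to differ, so these counts describe the 74. The sums opposite DET1, FEZF1-AS1 and PIPOX are of this kind, and their p-values below are no independent support for the difference. The sense gene was abundant enough for the test at only 11 of the 74. Among those 11, the sum and the gene were both called for 3 in ectoderm (2 in the same direction), 2 in endoderm (both the same) and 1 in mesoderm (the same). The sum alone was called for 3, 5 and 3, and the gene alone for 2, 0 and 2.

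TLR5 in ectoderm was the one pair that moved in opposite directions. The 6 antisense transcripts of TLR5 summed to 26 and 46 (hPSC), 0 and 0 (ectoderm), 14 and 13 (endoderm) and 1 and 3 counts (mesoderm). The gene had counts of 2 and 0 (hPSC), 22 and 18 (ectoderm), 0 and 0 (endoderm) and 0 and 1 (mesoderm). Sense and antisense counts were each highest in a different group, without overlap. The antisense sum was at least 21.3-fold lower in ectoderm (adjusted p = 2.95e-06), and the pooled CPM of TLR5 was 10.1-fold higher (95% exact interval 2.61 to 86.0, adjusted p of the fit 0.0128). The rise of TLR5 was lost with DESeq2 (adjusted p = 0.176), without the second hPSC library (0.0960) and without either ectoderm library (0.0936 and 0.0925).

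FEZF1-AS1 and its antisense transcript rose together. The gene had counts of 1 and 2 (hPSC), 210 and 172 (ectoderm), 0 and 0 (endoderm) and 0 and 1 (mesoderm), and its pooled CPM was 64.1-fold higher in ectoderm than in hPSC (95% exact interval 21.8 to 312, adjusted p of the fit 3.50e-06), beside the 62.4-fold of its antisense transcript. For DET1 the antisense sum had counts of 4 and 2 (hPSC), 1 and 1 (ectoderm), 114 and 104 (endoderm) and 0 and 0 (mesoderm). It rose in endoderm by 5.37 ± 0.43 (SE) on the log2 scale (adjusted p = 1.46e-06). DET1 itself had counts of 9 and 11 (hPSC), 34 and 28 (ectoderm), 3 and 4 (endoderm) and 14 and 9 (mesoderm), lowest in endoderm, with a log2 fold change of -1.28 there that did not pass the test (adjusted p = 0.120).

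SYT6, PIPOX and DANT2 also had counts on both strands, and they were named after their values were seen. SYT6 encodes a synaptotagmin, a calcium sensor of vesicle fusion. Its antisense sum had counts of 15 and 2 (hPSC), 10 and 17 (ectoderm), 0 and 1 (endoderm) and 0 and 0 (mesoderm), and the gene had 60 and 70, 98 and 89, 10 and 12, and 10 and 7. The hPSC libraries of the antisense sum lie far apart. In endoderm the pooled CPM of the sum was 18.4-fold lower (95% exact interval 2.89 to 770, adjusted p of the fit 0.0481, 0.164 by DESeq2), and the gene fell by 2.34 on the log2 scale (adjusted p = 0.000248). In mesoderm the sum was at least 2.72-fold lower (adjusted p = 0.00997), and the gene fell by 3.10 (adjusted p = 1.90e-05). PIPOX encodes a peroxisomal enzyme that oxidizes pipecolic acid. Its antisense sum had counts of 1 and 2 (hPSC), 5 and 7 (ectoderm), 13 and 12 (endoderm) and 2 and 2 (mesoderm). The pooled CPM of the sum was 7.69-fold higher in endoderm (95% exact interval 2.35 to 39.8, adjusted p of the fit 0.00257), where the log2 fold change of the gene was -0.76 (adjusted p = 0.138). PIPOX itself had counts of 47 and 62 (hPSC) and 1 and 0 (mesoderm), a pooled CPM 104-fold lower (18.3 to 4158), while its antisense sum did not pass the test there (adjusted p = 0.884). DANT2 is a noncoding gene on the X chromosome, and its 4 antisense transcripts summed to 22 and 8 (hPSC), 38 and 38 (ectoderm), 1 and 1 (endoderm) and 12 and 9 counts (mesoderm). The pooled CPM of that sum was 16.3-fold lower in endoderm (95% exact interval 4.12 to 140, adjusted p of the fit 0.00320, 0.0276 by DESeq2). DANT2 itself had counts of 13 and 15 (hPSC) and 4 and 7 (endoderm) and did not pass the test (adjusted p = 0.145).

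**Figure D5:**
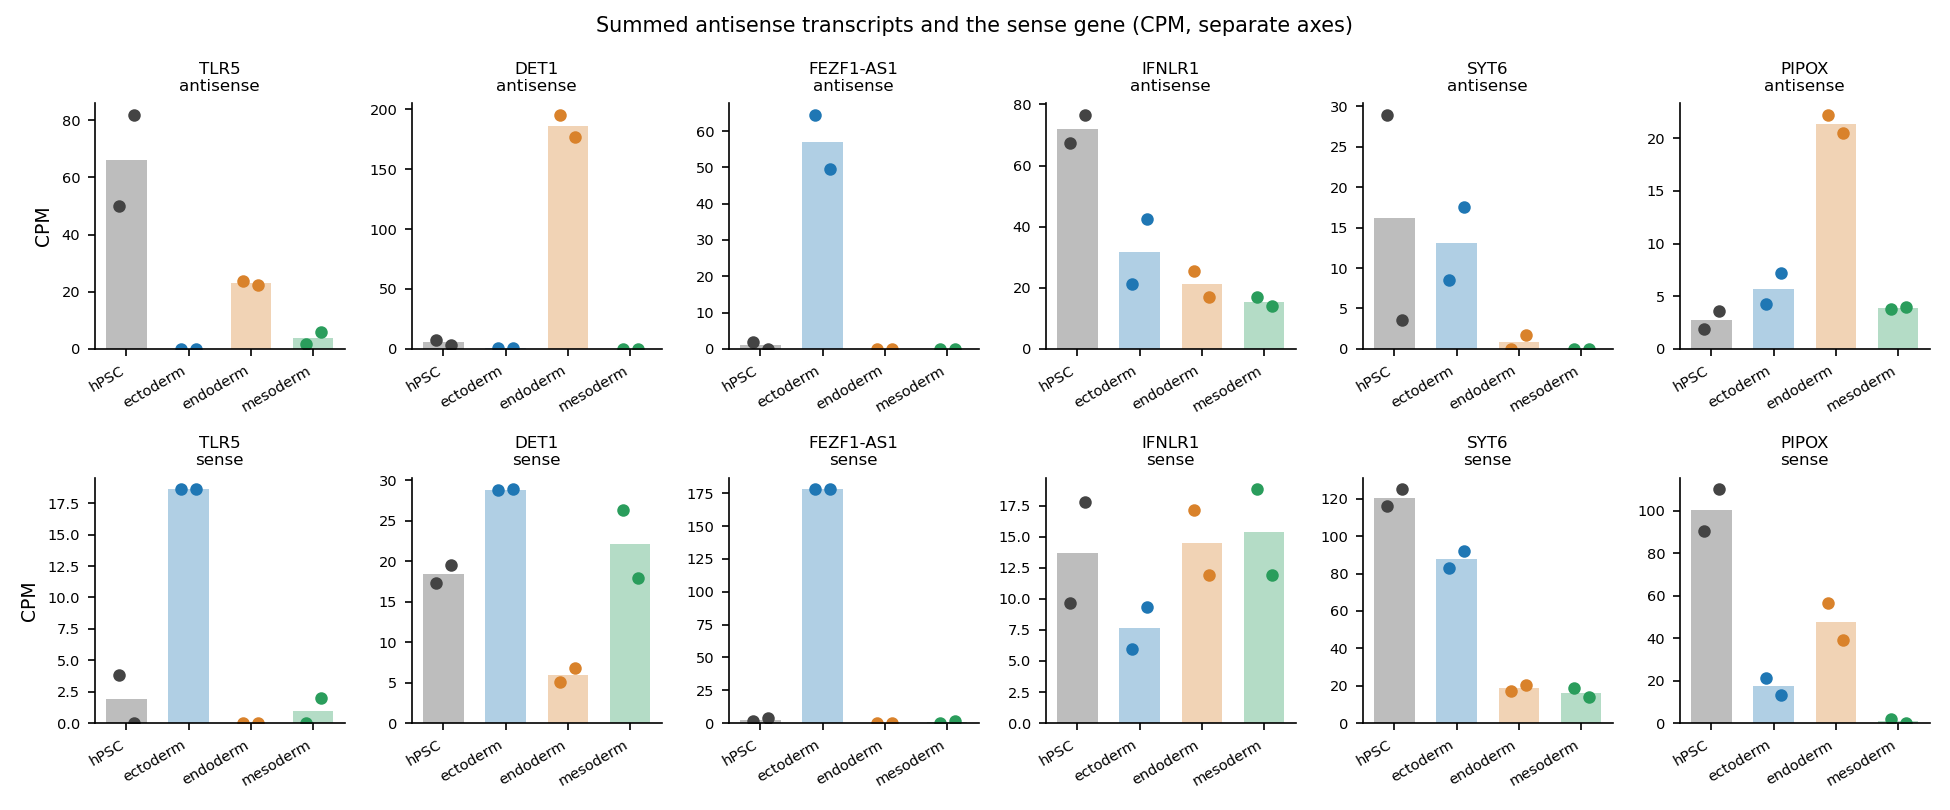
Summed antisense transcripts (top) and the gene on the opposite strand (bottom) as scaled counts (CPM), for 6 genes, with a separate axis in each panel. Points are the 2 libraries of a group and bars their mean. For TLR5 the antisense transcripts are highest in hPSC and the gene in ectoderm, for FEZF1-AS1 both are highest in ectoderm, and for DET1 the antisense transcripts are highest in endoderm, where the gene is lowest.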

How the data were processed

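Members are the transcripts of class code x in the authors' combined assembly, joined to the deposited count table by transcript identifier. The deposited values are whole raw counts per transcript, without normalization. Both deposited endoderm columns are entered under expected counts in the record of units, although they hold whole numbers and nothing was rounded. The submitters' processing notes name minimap2, StringTie, GRCh38 and hg38. Versions, the counter, the annotation release and the use of strand in counting are not given in the sources used here, so reads of overlapping genes on both strands cannot be told apart from the counts alone.

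For differences from hPSC, edgeR 4.0.16 (R 4.3.3) fitted 1 quasi-likelihood model over the 8 libraries (TMM, filterByExpr with groups and its minimum count of 10, two-sided, Benjamini-Hochberg adjustment at 0.05). SE is the fold change divided by the square root of F. DESeq2 1.42.0, other size factors, no filter, a replicate block, 2-group fits and leaving out each library were alternatives. Library totals were 503840 to 1180888 counts. Values per library were compared by an exact permutation test over all partitions of the 8 libraries into pairs. Contexts come from GENCODE 29, sequences from GENCODE 29 and RefSeq. Scripts were tested on simulated data. The members, lists, tests and the rule for named transcripts (the 10 with the most counts, the 3 highest and 3 lowest called per layer, list genes with at least 20 counts, called opposite pairs) were chosen with earlier results of these data known.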

Additional observations from a re-analysis of the deposited data

How the results depend on the processing

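The ectoderm libraries had the highest share of counts, the most members at equal depth and the highest antisense share of antisense plus sense counts when any 1 library was left out, with ranges between group means of 0.275 to 0.334 percentage points, 378 to 402 members and 13.3 to 16.2 percentage points. The highest group became hPSC with members of at least 2 group assemblies (range 0.0172 percentage points) and endoderm with genes opposed by spliced members (12.3 percentage points), and the median over genes ended the call (range 0.406 percentage points). The share of class x in class x plus class i, which was added as an alternative once the data had been seen, spanned 17.7 percentage points for spliced transcripts and 4.78 to 5.35 when 1 library was left out. No member is mitochondrial, so leaving such members out changed nothing. Without a filter on low counts, 104, 27 and 28 members and 126, 29 and 55 sums were called in ectoderm, endoderm and mesoderm. DESeq2 called 12 members and 18 sums in ectoderm and 13 sums in mesoderm. Leaving out 1 library gave 18 to 36, 10 to 21 and 8 to 20 members, and 28 to 58, 9 to 20 and 13 to 29 sums. The filter then tests more features, and a group left with 1 library is taken to vary like the others.

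The repeat numbers do not pair the libraries: correlations of same-numbered deviations ran from -0.046 to 0.158 over 12440 transcripts. With the replicate block, 27, 12 and 9 members and 46, 16 and 20 sums were called. Alternatives were compared for 31 called fold changes, those of named members and of the TLR5 antisense sum and gene in ectoderm. Under them 398 values kept their direction and 32 of these did not pass the threshold. Only 44 of 1544 members had enough counts to be tested.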
